A study of Mus musculus with 12 samples.

Results

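Inflammasomes are protein platforms that macrophages assemble in the cytosol when they detect microbes or damage, and the genes described here encode their sensors, adapter, proteases and the proteins that open the cell. The set holds 10 genes of the 21899 in the count table, chosen by symbol: the sensors Nlrp3, Nlrp1b, Nlrc4, Aim2 and Mefv, the adapter Pycard, the inflammatory caspases Casp1 and Casp4, and the effectors Gsdmd and Ninj1. Each symbol named 1 row, all 10 passed the filter on low counts, and the count behind a group of 3 libraries was never below 360 reads. The messages were read by RNA sequencing in mouse bone marrow-derived macrophages, primary cells of wild-type genotype with no strain, sex or age on the labels. The genes lie on chromosomes 11 (Nlrp3 and Nlrp1b), 17 (Nlrc4), 1 (Aim2), 16 (Mefv), 7 (Pycard), 9 (Casp1 and Casp4), 15 (Gsdmd) and 13 (Ninj1).

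There were 4 groups of 3 libraries: untreated controls, macrophages with CS-PA/CNP, macrophages with PgLPS, and macrophages with the pair of them (called both agents here). The labels spell out neither abbreviation and state neither dose, time nor order of addition, and the title of the series names a composite hydrogel against periodontitis and hypertension. All groups share the cell type and genotype, and whether the libraries of a group come from separate animals or cultures is not given, so p-values measure the spread between these libraries, which may be technical. Message levels say nothing of protein, cleavage or death of cells, none of which was measured.

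As background, the sensors each answer to their own trigger. NLRP3 responds to potassium efflux and membrane damage, NLRP1B to proteases that cut it, NLRC4 to bacterial flagellin and secretion systems passed on by NAIP proteins, AIM2 to double-stranded DNA in the cytosol, and pyrin (from Mefv) to loss of RhoA activity. The adapter ASC (from Pycard) joins most sensors to caspase-1 (Casp1), which cuts pro-interleukin-1 beta, pro-interleukin-18 and gasdermin D. The mouse Casp4 gene encodes caspase-11, which binds lipopolysaccharide in the cytosol and also cuts gasdermin D. Gasdermin D (Gsdmd) forms the membrane pore, and NINJ1 (Ninj1) then ruptures the plasma membrane. In macrophages the NLRP3 pathway is known to need a first, priming signal through Toll-like receptors that raises the Nlrp3 and Il1b messages.

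Promoter sequences are shown for 3 members that differ in the letters found there and that were all higher with PgLPS. They are the 250 bases before a RefSeq start site on GRCm38.p6, 5′ to 3′ on the strand of the gene, in lower case with any match to the NF-kB consensus in capitals. The stretches lie at chr11:59541319-59541568 on the plus strand for Nlrp3 (the upstream of its 2 start sites), chr9:5308599-5308848 on the plus strand for Casp4 (the first of 2 overlapping start sites) and chr16:3718125-3718374 on the minus strand for Mefv.
Nlrp3: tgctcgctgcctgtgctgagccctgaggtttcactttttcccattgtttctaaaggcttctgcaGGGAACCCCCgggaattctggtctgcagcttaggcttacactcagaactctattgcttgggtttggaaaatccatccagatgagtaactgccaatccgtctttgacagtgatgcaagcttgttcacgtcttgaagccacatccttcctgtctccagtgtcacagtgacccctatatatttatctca
Casp4: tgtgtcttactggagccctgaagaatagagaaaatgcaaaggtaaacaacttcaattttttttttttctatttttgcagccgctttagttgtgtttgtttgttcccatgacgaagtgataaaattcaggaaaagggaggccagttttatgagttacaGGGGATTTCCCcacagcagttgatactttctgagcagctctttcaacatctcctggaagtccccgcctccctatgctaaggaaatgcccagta
Mefv: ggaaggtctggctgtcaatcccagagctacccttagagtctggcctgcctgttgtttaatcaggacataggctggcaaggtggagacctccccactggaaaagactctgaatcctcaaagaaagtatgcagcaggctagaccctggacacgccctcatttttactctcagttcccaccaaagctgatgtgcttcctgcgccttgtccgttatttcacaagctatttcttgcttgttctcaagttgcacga
The capitals of Nlrp3 lie 186 to 177 bases before its start, and those of Casp4, 2 matches that overlap on the same bases, 93 to 83 bases before. The stretch of Mefv has none. RefSeq promoters were found for 9 of the 10 members, all but Gsdmd, and Nlrp3 and Casp4 were the 2 with a match on either strand. The second start site of Nlrp3 had 0 matches, and both start sites of Casp4 hold the same letters. Over all genes, 3.90% of 32851 promoters of this length hold a match. That share is per promoter while the members are counted per gene, so they are not like for like. The interferon-response letters GAAANNGAA (in 7.13% of all promoters) were in none of the 9 within this window. A match is a description of the letters and not of binding.

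Depth was similar across libraries, with 14992707 to 20082900 counted reads each. The TMM factors, which rescale library totals for composition, were 0.853 to 0.875 in PgLPS libraries, 0.890 to 0.901 for both agents, 1.11 to 1.12 for CS-PA/CNP and 1.15 to 1.16 for control. All 9 macrophage markers were detected, with summed levels of 20770 to 22330 CPM in control and 28220 to 30600 CPM with PgLPS, where CPM is the count per 1000000 reads of the library after that scaling. Lyz2 made up most of the sum, with means of 15401 CPM in control and 17569 CPM with PgLPS. The means of Cd68 (1494 to 1199 CPM), C1qa (258 to 188) and C1qb (911 to 790) were lower with PgLPS, and those of the others were higher. Of other cells, 9 neutrophil markers summed to 225 to 252 CPM in PgLPS libraries and 180 to 208 CPM for both agents. The sums were 115 to 168 CPM for CS-PA/CNP and 153 to 184 CPM in control. Ly6g had no more than 14 reads in any group, Elane 19, Retnlg 42, Mpo 68 and Camp 215. The other markers were clearly detected, with 1861 to 2428 reads per group for Ngp and 1137 to 2038 for Ltf. S100a8 had 1323 to 2733 reads per group and S100a9 3182 to 4620. The 6 stromal markers summed to 5.88 to 53.6 CPM in PgLPS libraries, highest in library 1, and to at most 4.49 CPM in any other library. The part of these cells in the results below was not tested.

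**Figure D1:**
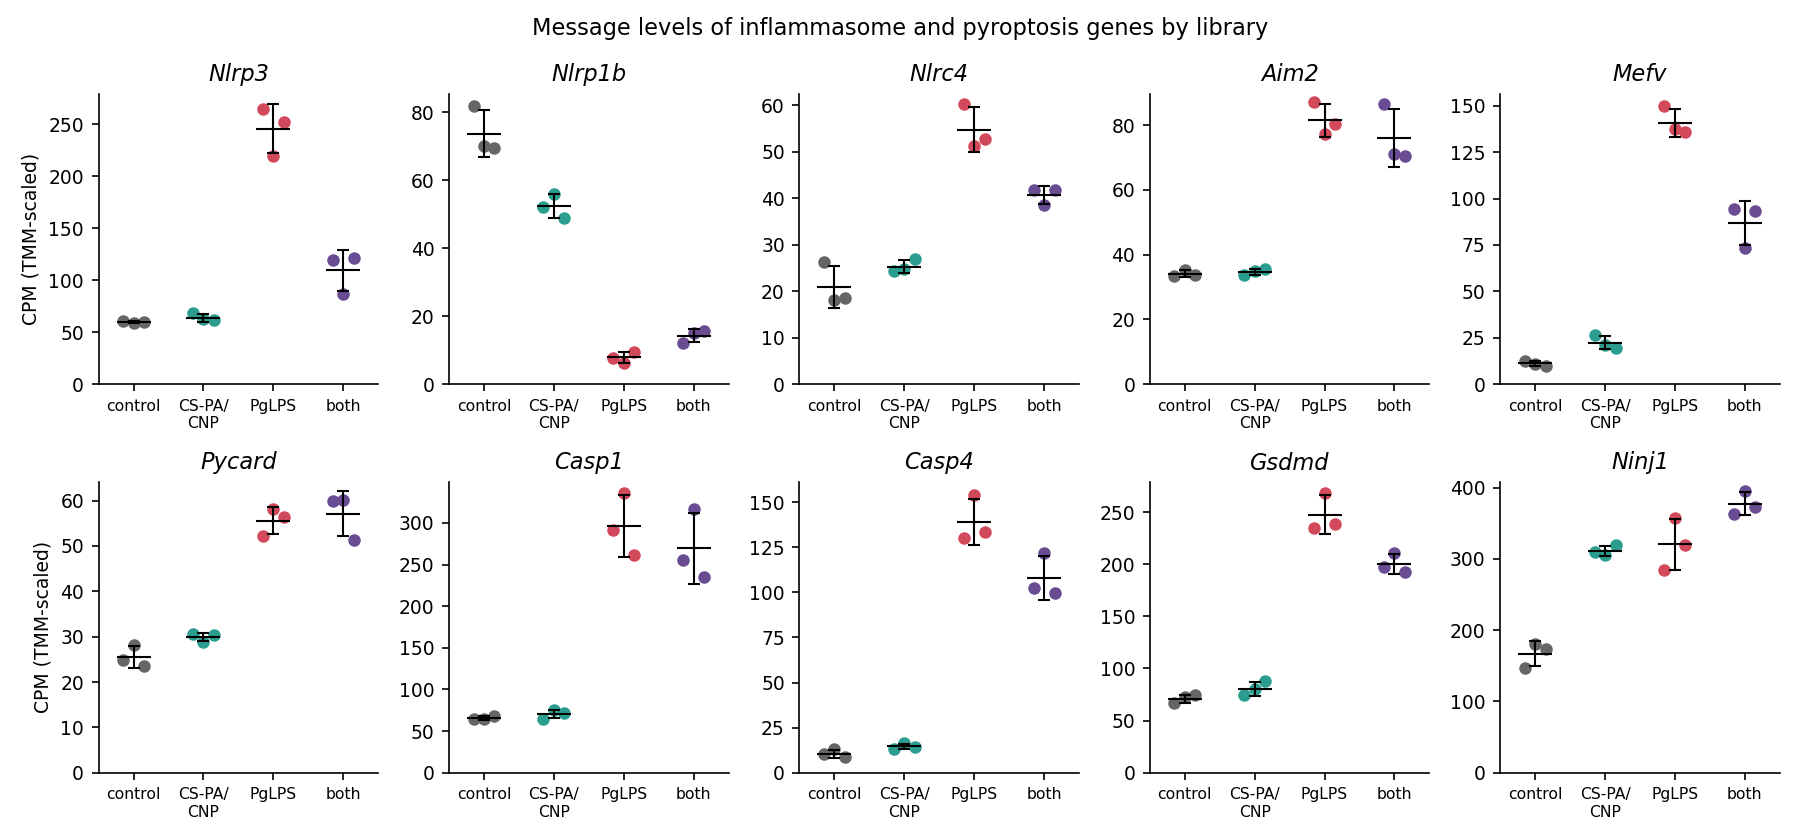
Level of each message in CPM (vertical axes, each from 0) in the 3 libraries of control, CS-PA/CNP, PgLPS and both agents; dots are libraries, bars the mean and SD. In 9 panels the PgLPS libraries lie above all control libraries, and in the Nlrp1b panel they lie below them.

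PgLPS alone was set against control to ask how these genes respond to it. Of the 10 members, 9 rose and 1 fell (edgeR, Benjamini-Hochberg-adjusted p below 0.05), and in all 10 the 3 PgLPS libraries did not overlap the 3 control libraries, as was so for 66.4% of all genes tested. This is to be read against a comparison in which 63.8% of the 11656 genes tested were called, 32.2% higher and 31.6% lower. The median log2 fold change was 1.59 over the members and -0.0036 over all genes tested. Casp4 and Mefv rose most, 13.1-fold and 12.5-fold, and Nlrp1b was the member that fell, by 9.27-fold. In bulk RNA, fewer cells that carry a message and less of it per cell cannot be told apart.

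Among the sensors, Nlrp3 stood at 61.0, 58.9 and 60.2 CPM in the control libraries and at 265, 220 and 252 CPM with PgLPS. The groups were far apart and the rise was 2.03 ± 0.10 on the log2 scale (SE; edgeR BH-adjusted p = 2.85e-12). Mefv went from 12.7, 11.1 and 10.02 CPM to 150, 137 and 136 CPM, a rise of 3.64 ± 0.12 (edgeR BH-adjusted p = 4.46e-15). Mefv was thus among the lowest messages of the set in control and well above Aim2 and Nlrc4 with PgLPS, also per gene length.

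Nlrp1b went the other way, from 81.7, 69.9 and 69.4 CPM in control to 7.78, 6.37 and 9.60 CPM with PgLPS. It fell by 3.21 ± 0.13 on the log2 scale (edgeR BH-adjusted p = 5.00e-14). The neighbouring paralogue Nlrp1a, of similar sequence, stood at 15.6 CPM in control and 17.7 CPM with PgLPS and was not called (log2 fold change 0.18 ± 0.12). The counting of reads that fit both copies was not given in the sources used here. The split between them is therefore uncertain.

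Aim2 (33.3, 35.3 and 33.6 CPM in control, 87.0, 77.1 and 80.2 with PgLPS) rose by 1.26 ± 0.08 and Nlrc4 (26.2, 18.2 and 18.5 CPM in control, 60.3, 51.2 and 52.7 with PgLPS) by 1.38 ± 0.12. The span of Aim2 overlaps that of Cadm3 on the opposite strand, which had 0 reads in the 12 libraries. The adapter Pycard rose by 1.12 ± 0.09, from 24.8, 28.1 and 23.6 CPM to 52.2, 58.2 and 56.3 CPM. It was among the smaller rises of the set, at 2.18-fold.

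Of the caspases, Casp4 rose from 10.4, 12.9 and 8.51 CPM to 130, 154 and 133 CPM, by 3.71 ± 0.13 (edgeR BH-adjusted p = 5.52e-15). Casp1 rose from 65.0, 64.5 and 68.5 CPM to 291, 336 and 262 CPM, by 2.17 ± 0.10 (edgeR BH-adjusted p = 8.79e-13). In log2 terms the caspase-11 message thus moved further than that of caspase-1, from a lower start. The pore gene Gsdmd rose by 1.80 ± 0.08, from 66.9, 72.5 and 74.2 CPM to 235, 269 and 239 CPM. Ninj1, the rupture gene, had the smallest rise, 0.94 ± 0.08, from 148, 181 and 173 CPM to 285, 357 and 320 CPM, and its groups still did not overlap.

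Scaling mattered for the size of these values and not for the calls. With plain library totals as the scale, the median over all genes moved by -0.41 (log2), and of all calls 21.8% were rises in place of 50.5%. The same 9 members were called higher and Nlrp1b lower. The smallest rises then stood at 0.52 for Ninj1, 0.71 for Pycard and 0.84 for Aim2.

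**Figure D2:**
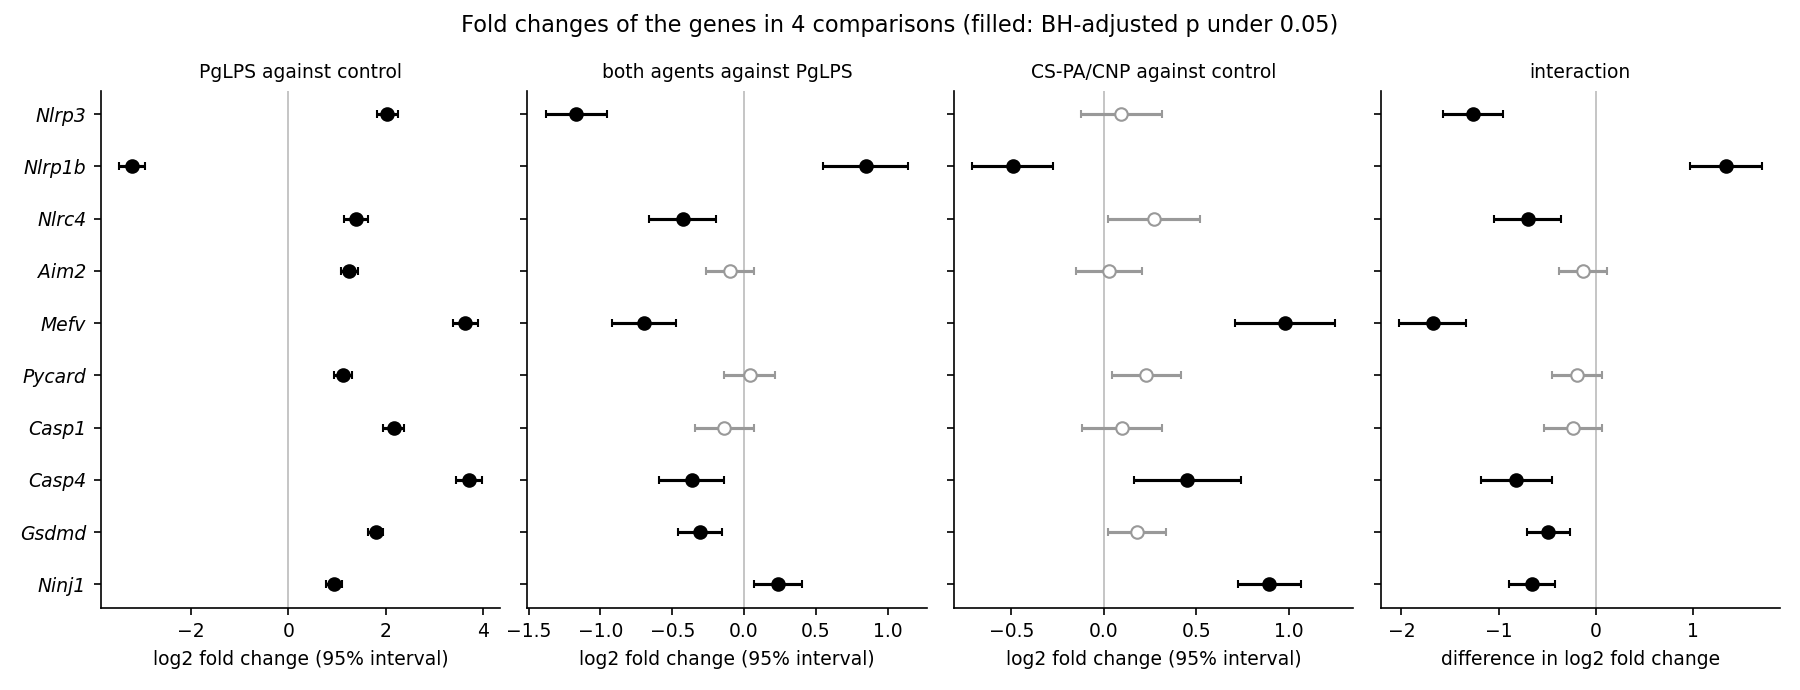
Log2 fold change of each member with its 95% interval in 3 comparisons, and in the fourth panel the difference between the effects of CS-PA/CNP with and without PgLPS; filled dots were called (BH-adjusted p below 0.05), and each panel has its own scale. Nlrp3 shows the largest fall with both agents against PgLPS, and Nlrp1b points the other way.

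Both agents were set against PgLPS to ask what CS-PA/CNP did beside PgLPS. The Nlrp3 message fell 2.25-fold, the largest fall of the set, while those of Pycard, Casp1 and Aim2 were not called. Of the 10 members, 5 fell (Nlrp3, Mefv, Nlrc4, Casp4 and Gsdmd), 2 rose (Nlrp1b and Ninj1) and 3 were not called. Of all genes tested, 19.5% were called, 9.42% higher and 10% lower. The median log2 fold change was -0.22 over the members and -0.01 over all genes. With library totals, 61.4% of all calls were rises in place of 48.4%, and the members were called as before.

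Nlrp3 stood at 120, 86.6 and 122 CPM with both agents against 265, 220 and 252 CPM with PgLPS alone. It fell by 1.17 ± 0.10 on the log2 scale, or 2.25-fold (edgeR BH-adjusted p = 9.28e-08), and no library with both agents reached those with PgLPS. Library 2 of both agents was the lowest and lay above the control libraries (58.9 to 61.0 CPM). Mefv fell by 0.70 ± 0.11, to 94.4, 73.3 and 93.01 CPM (edgeR BH-adjusted p = 7.17e-05). Nlrp1b, low with PgLPS, rose by 0.85 ± 0.14 to 12.2, 15.2 and 15.5 CPM (edgeR BH-adjusted p = 1.93e-04), still far under the 69.4 to 81.7 CPM of control.

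Smaller falls were seen in Nlrc4, Casp4 and Gsdmd, in each of which every library with both agents lay under every PgLPS library. The share of all genes tested without overlap was not counted for this comparison. The lack of overlap here, and that of Nlrp3 and Ninj1, is therefore a description only. Gsdmd stood at 197, 211 and 193 CPM, a fall of 0.30 ± 0.07 (edgeR BH-adjusted p = 0.00484) that was called without any one of the 6 libraries. Nlrc4 stood at 41.7, 38.5 and 41.8 CPM, a fall of 0.43 ± 0.11 (edgeR BH-adjusted p = 0.0100), and the call was lost without PgLPS library 1 (edgeR BH-adjusted p = 0.0508). Casp4 stood at 102, 122 and 99.6 CPM, a fall of 0.36 ± 0.11 (edgeR BH-adjusted p = 0.0203). That call was lost without PgLPS library 2, without library 1 of both agents, and without library 3 of both agents, where edgeR gave BH-adjusted p = 0.0721, 0.0872 and 0.0928 in turn.

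Ninj1 rose by 0.24 ± 0.08, from 285, 357 and 320 CPM to 363, 395 and 373 CPM, so the groups lay close but apart. Its adjusted p was 0.0438 by edgeR, and 5 of the 6 fits that left out a library lost the call (edgeR BH-adjusted p = 0.0585 to 0.200), as did the fit of these groups alone (0.0667). The exception was the fit without PgLPS library 2.

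For the members not called, the intervals bound the change. The log2 fold change of Pycard was 0.04 (95% interval -0.14 to 0.22), at 60.0, 60.1 and 51.4 CPM with both agents. That of Casp1 was -0.14 (-0.34 to 0.07), at 256, 317 and 235 CPM, and without library 2 of both agents it stood at -0.27 and was called (edgeR BH-adjusted p = 0.0333). That of Aim2 was -0.10 (-0.27 to 0.07), at 86.5, 71.1 and 70.5 CPM. In each of the 3 the libraries of the groups overlapped.

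CS-PA/CNP alone was set against control to ask what it did without PgLPS. Ninj1 and Mefv rose by nearly 2-fold, Casp4 rose less, and Nlrp1b fell. These were the calls, 3 higher and 1 lower of 10 members, where 12.3% of all genes tested were called, 6.67% higher and 5.61% lower. The median log2 fold change was 0.21 over the members and 0.00 over all genes. With library totals, 41.9% of all calls were rises in place of 54.3%.

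Ninj1 went from 148, 181 and 173 CPM in control to 309, 305 and 319 CPM, a rise of 0.90 ± 0.08 (edgeR BH-adjusted p = 2.63e-07). Its level with CS-PA/CNP alone lay within the range of the PgLPS libraries (285 to 357 CPM). Mefv went from between 10.02 and 12.7 CPM in control to 26.5, 20.9 and 19.7 CPM, a rise of 0.98 ± 0.13 (edgeR BH-adjusted p = 2.56e-05). Nlrp1b fell by 0.49 ± 0.10, to 52.2, 56.0 and 49.0 CPM (edgeR BH-adjusted p = 0.00330). These 3 calls held in every fit that left out a library.

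Casp4 stood at 13.2, 16.3 and 14.1 CPM against 8.51 to 12.9 CPM in control, a rise of 0.45 ± 0.14 (edgeR BH-adjusted p = 0.0375). The call was lost without control library 1 or 3 or CS-PA/CNP library 2 or 3 (edgeR BH-adjusted p = 0.0834 to 0.195), and with library totals (0.0557). Nlrp3, the sensor lowered most beside PgLPS, had a log2 fold change of 0.09 (95% interval -0.13 to 0.31), at 68.3, 62.3 and 61.5 CPM. Its libraries lay just above those of control, and the change was not called (edgeR BH-adjusted p = 0.655). Nlrc4, Aim2, Pycard, Casp1 and Gsdmd were also not called, with log2 fold changes of 0.03 to 0.27. Nlrc4 was called without control library 1, where it stood at 0.46 (edgeR BH-adjusted p = 0.00584). With the column number as a replicate block, Nlrc4 (0.28) and Gsdmd (0.18) were called too, which made 5 members higher.

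The interaction asked whether CS-PA/CNP acted differently with PgLPS than without it. It differed for 7 members, 6 with a lower effect beside PgLPS and 1 with a higher one, where 15.8% of all genes tested were called, 7.46% higher and 8.34% lower. The median over the members was -0.57, against -0.01 over all genes. With library totals, 63.7% of all calls were positive in place of 47.2%. The interaction of Mefv was -1.68 ± 0.17 (edgeR BH-adjusted p = 5.48e-07): CS-PA/CNP raised it by 0.98 without PgLPS and lowered it by 0.70 with PgLPS. That of Nlrp1b was 1.34 ± 0.18 (edgeR BH-adjusted p = 1.72e-05), with a fall of 0.49 without PgLPS and a rise of 0.85 with it.

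Nlrp3 had an interaction of -1.26 ± 0.15 (edgeR BH-adjusted p = 3.86e-06), its effects being 0.09 without PgLPS and -1.17 with it. Casp4 had -0.82 ± 0.17, with effects of 0.45 and -0.36, so Mefv, Nlrp1b and Casp4 were each called in opposite directions in the separate comparisons. For Casp4 these separate calls were fragile. Of 6 fits that left out a library, 4 lost its rise without PgLPS and 3 lost its fall with PgLPS. Ninj1 had -0.66 ± 0.11, where both effects were rises, 0.90 without PgLPS and 0.24 with it. Nlrc4 (-0.70 ± 0.16) and Gsdmd (-0.49 ± 0.10) were called as well. Aim2, Pycard and Casp1 were not, with 95% intervals of -0.37 to 0.12, -0.45 to 0.07 and -0.53 to 0.06, and the interaction of Casp1 was called without library 2 of both agents, at -0.37 (BH-adjusted p = 0.0377 by edgeR).

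Both agents were also set against control. All 9 members that rose with PgLPS alone rose here too and Nlrp1b fell, with no overlap between libraries in any of the 10, where 63.1% of all genes tested had none. Of all genes tested, 58.0% were called, 29.7% higher and 28.4% lower, and the control libraries are shared with the PgLPS comparison. The median log2 fold change over the members was 1.17. With library totals, 21.3% of all calls were rises in place of 51.1%, and the members were called as before. Nlrp3 stood 1.82-fold above control with both agents and 4.09-fold above it with PgLPS alone. For Mefv the values were 7.69-fold and 12.5-fold, for Casp4 10.1-fold and 13.1-fold, and for Gsdmd 2.81-fold and 3.48-fold. For Casp1 they were 4.08-fold and 4.49-fold, for Pycard 2.24-fold and 2.18-fold, and for Ninj1 2.26-fold and 1.92-fold. Nlrp1b stood 5.14-fold below control with both agents and 9.27-fold below it with PgLPS.

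**Figure D3:**
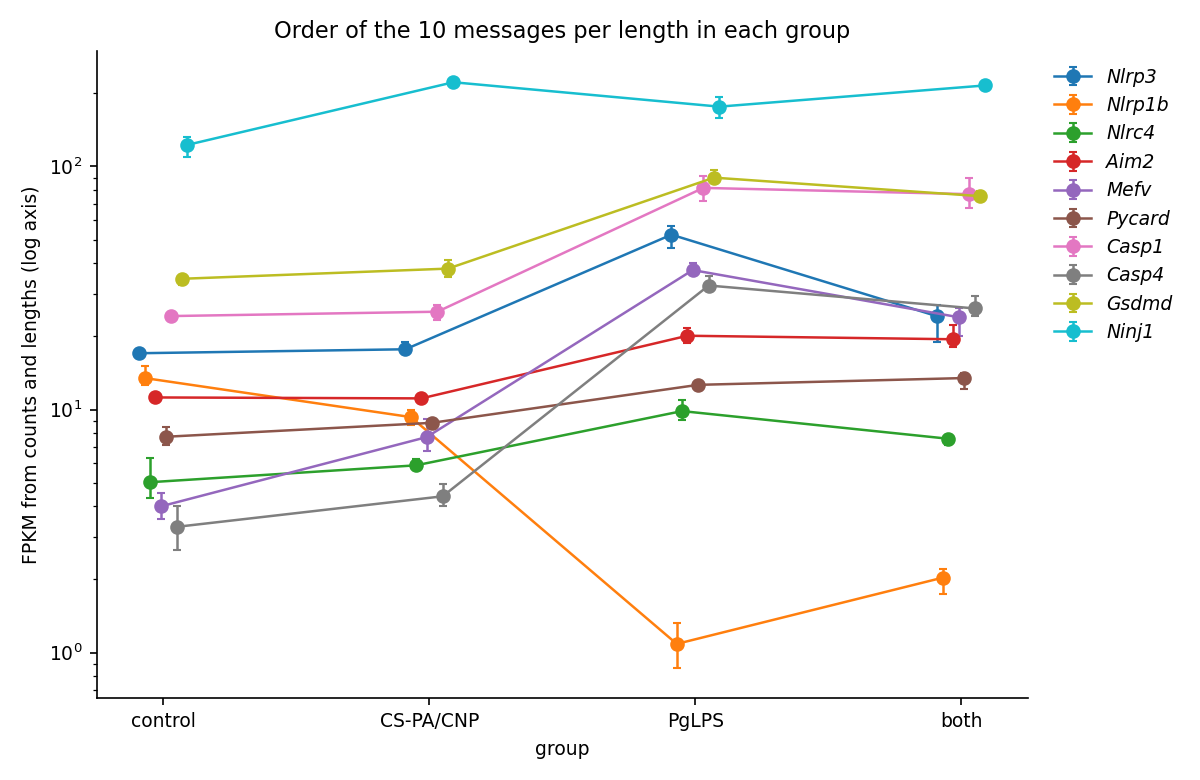
FPKM of the 10 messages (log axis) in the 4 groups; dots are means, bars the lowest and highest of 3 libraries, lines join the values of one gene. Ninj1 is on top in every group, and Nlrp1b moves from the middle of the set in control to the bottom with PgLPS and with both agents.

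Levels of different genes were compared per length, as FPKM, here the count divided by the gene length and the library total, with no TMM scaling. How the deposited length (3800 bases for Pycard and 1570 for Ninj1) was defined was not given in the sources used here. A length unlike that of the message would shift the place of a gene, so the order between genes is uncertain. In control the order was Ninj1 (123 ± 12 FPKM, SD, n = 3), Gsdmd (34.5 ± 1.6), Casp1 (24.2 ± 0.76), Nlrp3 (17.0 ± 0.40), Nlrp1b (13.5 ± 1.4), Aim2 (11.2 ± 0.32), Pycard (7.72 ± 0.70), Nlrc4 (5.02 ± 1.1), Mefv (3.995 ± 0.50) and Casp4 (3.29 ± 0.68). The libraries of Nlrc4 and Mefv overlapped, as did those of Mefv and Casp4, and no other neighbours in this order did. By this measure the messages of the effectors and of caspase-1 were the most abundant of the set before any stimulus, and that of caspase-11 lay at the bottom.

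With CS-PA/CNP the top 4 kept their places, Ninj1 at 222 ± 4.0 FPKM. Aim2, Nlrp1b (9.31 ± 0.66), Pycard (8.82 ± 0.27), Mefv (7.70 ± 1.3), Nlrc4 and Casp4 (4.39 ± 0.50) followed, and the ranges of Nlrp1b and Pycard overlapped, as did those of Pycard and Mefv.

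With PgLPS, Ninj1 stood at 176 ± 18 FPKM, Gsdmd at 89.9 ± 5.6 and Casp1 at 81.6 ± 9.5, where the ranges of the last pair overlapped although Gsdmd was higher in each of the 3 libraries. Nlrp3 followed at 52.4 ± 5.6, Mefv at 37.5 ± 2.4 and Casp4 at 32.4 ± 2.6. Aim2 (20.1 ± 1.5), Pycard (12.6 ± 0.54), Nlrc4 (9.85 ± 1.0) and Nlrp1b (1.09 ± 0.23) closed the order. Mefv and Casp4, the lowest pair in control, thus lay above Aim2 and Pycard with PgLPS. With both agents, Casp1 (76.9 ± 12) and Gsdmd (75.5 ± 3.1) overlapped, and so did Casp4 (26.0 ± 2.8), Nlrp3 (24.2 ± 4.5), Mefv (24.0 ± 3.4) and Aim2 (19.5 ± 2.4), each with its neighbour. Nlrp3, which stood apart as the leading sensor with PgLPS alone, was no longer set off from Mefv there.

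Genes with the most similar profile over the 12 libraries were sought for each member, leaving out predicted genes, as those with the smallest root mean square difference of centred log2 CPM. All genes share the libraries and their 4 groups, so the values are descriptions. Nlrp3 was nearest to Rab11fip1 (0.0940 log2 units) and Snx18 (0.114), Casp1 to Irf1 (0.0998) and Nr1h3 (0.117), and Gsdmd to B2m (0.0658) and Psme1 (0.0692). Casp4 was nearest to Ms4a6d (0.153) and Tap1 (0.169), and Mefv to Abtb2 (0.176) and Src (0.213). Nlrc4 was nearest to Cysltr1 (0.122) and Naip2 (0.137), the latter encoding the protein that presents bacterial secretion rod protein to NLRC4. Nlrp1b was nearest to Maml3 (0.169), Top2a (0.183) and Mcm2 (0.191), of which the latter pair act in DNA topology and replication. Aim2 was nearest to Daam1 (0.0664), Pycard to M6pr (0.0741) and Ninj1 to Slc11a1 (0.114).

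Other genes of the pathway were followed in 7 lists, with log2 fold changes ± SE and levels in CPM ± SD (n = 3). Their counts are to be read against 63.8% of all genes called with PgLPS (32.2% higher) and 19.5% with both agents against PgLPS (10% lower). Among other sensors and adapters, 7 of 10 tested rose with PgLPS and 1 fell (list median 1.14), among them the nucleic acid sensors Zbp1 (6.997 ± 0.08) and Ifi204 (3.93 ± 0.07) and the peptidoglycan sensor Nod2 (3.44 ± 0.13). The NAIP genes, whose proteins recognise bacterial ligands for NLRC4, had 4 members tested, and all 4 rose with PgLPS like Nlrc4. Naip2 rose 2.83-fold with PgLPS and fell by 0.39 ± 0.08 (log2) with both agents against PgLPS, and Naip5 rose by 0.78 and fell by 0.50. Naip1 rose by 2.37 ± 0.37 with PgLPS and fell by 1.88 ± 0.36 with both agents, from a mean of 3.59 CPM. Naip6 rose by 0.51 ± 0.12 with PgLPS, and with both agents against PgLPS it stood at -0.22 (95% interval -0.47 to 0.04) and was not called. The Naip genes are near copies of one another, so their counts carry the same doubt as those of Nlrp1b. In all, 5 of these 10 fell and 1 rose with both agents against PgLPS (list median -0.26).

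**Figure D4:**
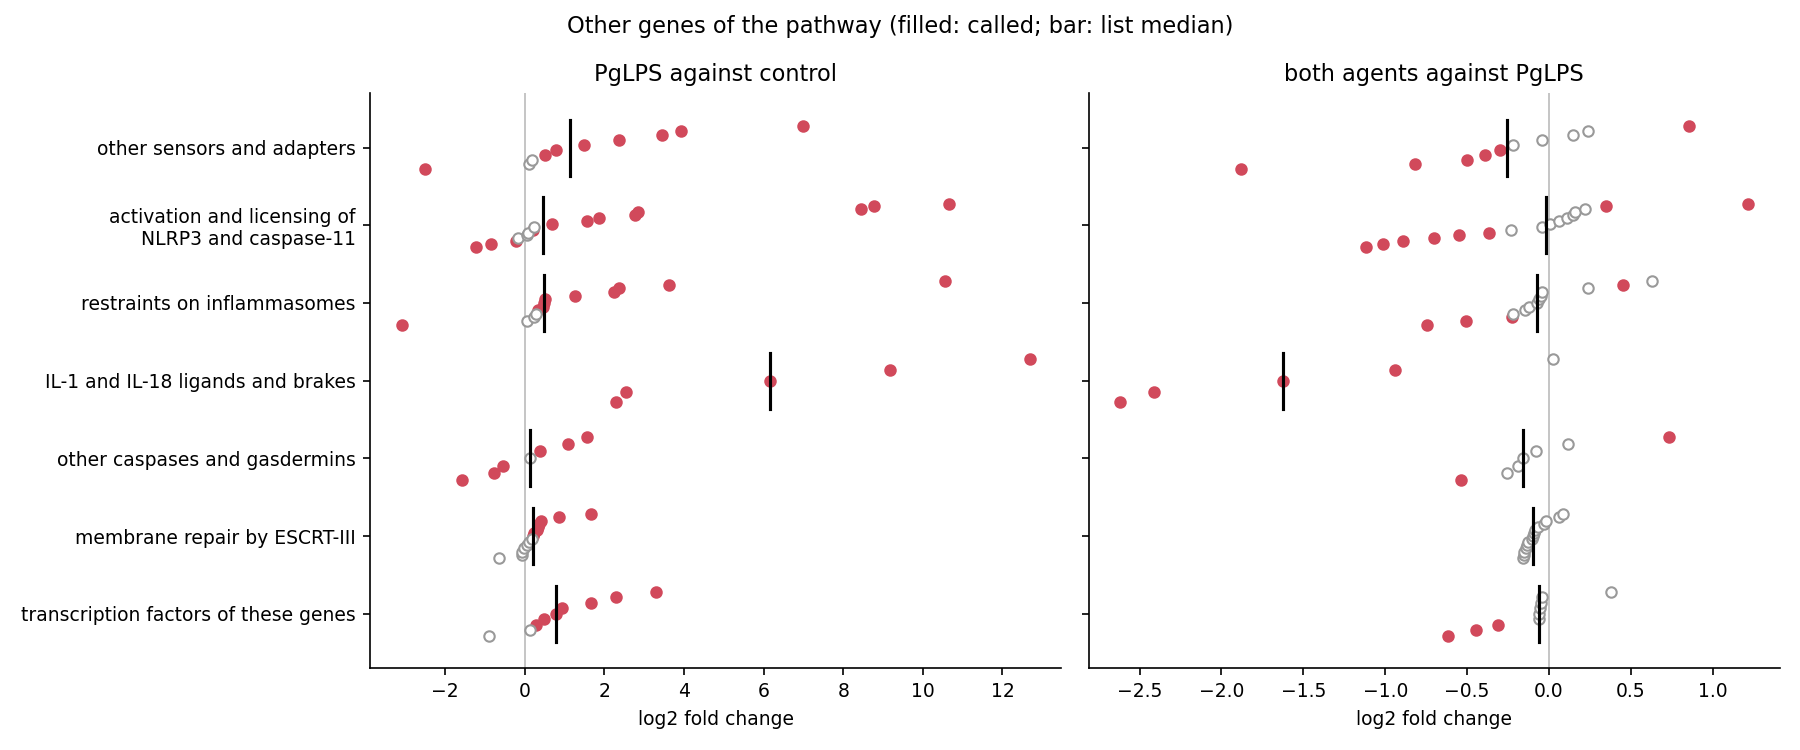
Log2 fold changes of the other pathway genes by list, with PgLPS against control (left) and with both agents against PgLPS (right); each dot is a gene, filled where called, and the bar is the median of the list. The list of interleukin-1 and interleukin-18 genes has the highest median on the left (6.16) and the lowest on the right (-1.63), and no gene of membrane repair was called on the right.

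Of 16 tested genes that license NLRP3 or caspase-11, 9 rose and 3 fell with PgLPS (list median 0.45), where 63.8% of all genes were called. The guanylate-binding protein genes Gbp5 (10.66 ± 0.19), Gbp2 (8.77 ± 0.14) and Gbp3 (8.46 ± 0.13) rose most. Gbp5 had only 2, 5 and 12 reads in the control libraries, so the size of its rise is uncertain. It was 10.21 to 11.50 in fits that left out a library. The proteins of these genes gather on bacteria and lipopolysaccharide and help caspase-11 to respond. Nek7, whose protein binds NLRP3 and is needed for its assembly, fell by 0.85 ± 0.07 with PgLPS, from 156 ± 6.1 to 86.6 ± 5.0 CPM. With CS-PA/CNP alone it fell by 0.35 ± 0.07. With both agents against PgLPS, 6 of the 16 fell and 2 rose (median -0.02), where 19.5% of all genes were called. Among the falls were Cd14 at -1.12 ± 0.07 and Tlr2 at -1.01 ± 0.06, which encode receptors of bacterial products at the cell surface.

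Panx1, the gene of the pannexin-1 channel that caspases open and that releases ATP, stood at 35.3 ± 3.6 CPM in control and 31.2 ± 3.2 with PgLPS, which was not called. With CS-PA/CNP it stood at 85.0 ± 5.0 CPM without PgLPS and 72.5 ± 1.3 with it, rises of 1.27 ± 0.09 (edgeR BH-adjusted p = 6.90e-09) and 1.22 ± 0.09 (edgeR BH-adjusted p = 1.03e-08). Its interaction was -0.05 and was not called.

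The list of interleukin-1 and interleukin-18 ligands and their brakes holds 5 genes, of which all rose with PgLPS and 4 fell with both agents against PgLPS (medians 6.16 and -1.63). Over all genes, 63.8% and 19.5% were called in these comparisons. The falls below are those with both agents against PgLPS. Il1b fell by 2.62 ± 0.12 and Il18 by 0.94 ± 0.15, from 45.4 ± 8.9 to 23.6 ± 3.8 CPM. Il1rn, the receptor antagonist that opposes interleukin-1, fell by 1.63 ± 0.06, and Il18bp, which binds interleukin-18, was not called. Il1a, whose protein caspase-1 does not cut, fell by 2.41 ± 0.11. Beside these, the log2 fold change of the Casp1 message was -0.14 (not called) and that of Gsdmd -0.30. With CS-PA/CNP alone against control, Il1b rose by 2.82 (edgeR BH-adjusted p = 4.09e-05), or by 2.30 to 3.42 in fits that left out a library. Against the same control it rose by 12.69 ± 0.23 with PgLPS alone, so its level with CS-PA/CNP alone was far lower. Il18, at 0.05 with CS-PA/CNP alone, was not called. Of the 5 genes, 1 was called higher and 1 lower there, beside 12.3% of all genes called. The interaction was -5.44 for Il1b (edgeR BH-adjusted p = 6.2e-09) and -0.99 for Il18 (edgeR BH-adjusted p = 0.00556).

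Of 13 tested genes that restrain inflammasomes, 9 rose and 1 fell with PgLPS (median 0.49; 63.8% called over all genes), with Acod1 (10.55 ± 0.15), Trim30a (3.63 ± 0.07) and Tnfaip3 (2.36 ± 0.08) leading by adjusted p. With both agents against PgLPS 3 fell and 1 rose (median -0.07), beside 19.5% called over all genes. Acod1 fell by 0.74 ± 0.09 and Tnfaip3 by 0.51 ± 0.07. Trim30a fell by 0.22 ± 0.06, a call lost when PgLPS library 1 was left out (BH-adjusted p = 0.0564 by edgeR) and with library totals (0.0592).

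Of 7 tested genes of other caspases and gasdermins, 3 rose and 3 fell with PgLPS (median 0.14), beside 63.8% of all genes called. Casp8, a death-receptor caspase that can also cut gasdermin D, rose by 1.09 ± 0.07. Gsdme, the gasdermin cut by caspase-3, fell by 1.58 ± 0.11, from 32.6 ± 1.8 to 10.9 ± 1.0 CPM, opposite to Gsdmd. With both agents Gsdme rose by 0.73 ± 0.11 against PgLPS, to 18.2 ± 2.0 CPM. Casp8, at -0.19, was not called by edgeR (BH-adjusted p = 0.0533) and was by DESeq2 (BH-adjusted p = 0.0294). Gsdma and Gsdmc had 0 reads in all 12 libraries, and Casp12, next to Casp1 and Casp4 on chromosome 9, had 10, 4, 26 and 12 reads in control, CS-PA/CNP, PgLPS and both agents.

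The ESCRT-III machinery removes gasdermin pores from the membrane. Of its 15 genes, 8 rose with PgLPS and 7 were not called (median 0.20), beside 63.8% called over all genes, with Chmp4b at 1.67 ± 0.08 and Chmp2a at 0.85 ± 0.09. With both agents against PgLPS edgeR called 0 of the 15 (median -0.09), 1 of them had an unadjusted p under 0.05, and DESeq2 called 0, beside 19.5% of all genes called by edgeR. With the replicate block Chmp1a was called, and without PgLPS library 1 Chmp4b was.

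Of 9 tested transcription factors, 7 rose with PgLPS (median 0.80), beside 63.8% of all genes called (32.2% higher). Irf1 rose by 2.28 ± 0.10 and Nfkb1 by 1.67 ± 0.06. Irf2, a factor known to drive Gsdmd, rose by 0.49 ± 0.06, a call lost with library totals (0.07, edgeR BH-adjusted p = 0.318). With both agents against PgLPS 3 fell, beside 19.5% of all genes called (10% lower). The falls were 0.62 ± 0.06 for Nfkb1, 0.45 ± 0.07 for Rela and 0.31 ± 0.06 for Nfe2l2. Irf1 had a log2 fold change of -0.05 ± 0.10 there and was not called.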

How the data were processed

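RNA sequencing was read in 12 libraries of mouse bone marrow-derived macrophages in 4 groups of 3. The authors deposited raw read counts and a length per gene, and FPKM used for order between genes was computed from these. The other 12 per-sample columns of the table (the authors' FPKM, which had been planned for that order) were not used. Listed in the submitters' processing notes are DESeq 1.30.0, HTSeq 0.9.1, HISAT2 2.0.5 and cutadapt 1.15, without role or order. Build, annotation and strandedness were not given in the sources used here. Genes are therefore placed by chromosome only.

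Columns were assigned to groups by the letters in their names, and library numbers are those of the columns, which could not be tied to the numbers in the titles. Counts were tested with edgeR 4.0.16 in R 4.3.3: 1 quasi-likelihood fit of all 12 libraries with a mean per group, TMM factors and filterByExpr, which kept 11656 genes with 99.967% of reads. Tests were 2-sided, with Benjamini-Hochberg adjustment over all tested genes and a threshold of 0.05, in 5 comparisons. The fit was tested on simulated data. SE is the size of the log2 fold change divided by the square root of its F statistic. Alternatives were DESeq2 1.42.0, library totals, RLE factors, no filter, only the groups compared, a replicate block by column number, and each library left out.

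The members and lists were chosen with earlier results of these data known, so no list has a test or an adjustment of its own. Named pathway genes were up to 3 per list with the smallest adjusted p with PgLPS and with both agents against PgLPS, and Il1b, Il18, Nek7, Casp8, Gsdme, Irf1, Irf2, Naip2 and Naip5, of which some genes are not reported here. Nlrp1a, Naip6, Panx1 in other comparisons, Il18bp, Casp12, Gsdma and Gsdmc were named after their values were seen. Irgb10, Pydc3 and Pydc4 of the lists matched no symbol. Promoters came from RefSeq (GRCm38.p6).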

Additional observations from a re-analysis of the deposited data

Results flagged for a closer look

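The effect of CS-PA/CNP differed with and without PgLPS, by the interaction term of edgeR, for 7 of the 10 members. The difference, on the log2 scale, was -1.68 for Mefv, -1.26 for Nlrp3, -0.82 for Casp4, -0.70 for Nlrc4, -0.66 for Ninj1 and -0.49 for Gsdmd, and 1.34 for Nlrp1b. All 7 stayed called in each of the 12 fits that left out a library. Among all genes 15.8% were called in this test. The PgLPS libraries, and the control libraries, each enter 1 of the 2 effects.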

How the results depend on the processing

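With library totals in place of TMM, 1945 genes were called higher and 6963 lower with PgLPS, and 1808 and 6685 with both agents against control. That setting turned the sign of 5 values: Aim2 (-0.013) and Naip5 (-0.011) with CS-PA/CNP, Naip5 with both agents against control (-0.078), Pdcd6ip with PgLPS (-0.045) and the interaction of Irf2 (0.031). With only the groups compared, 1 member was called higher with both agents against PgLPS in place of 2. Without 1 library at a time that count was 1 to 2, and genes called lower with CS-PA/CNP numbered 403 to 524 in place of 654. Leaving out a library also turned the sign of Pycard (range -0.00090 to 0.11) and Irf1 (-0.14 to 0.033) with both agents against PgLPS, and of Il18 (-0.092 to 0.18), Irf2 (-0.030 to 0.029) and Naip5 (-0.024 to 0.084) with CS-PA/CNP. None of these was called except Pdcd6ip with PgLPS and Naip5 with both agents against control.

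The labels state no pairing of libraries. Deviations of same-numbered libraries correlated at 0.0898 to 0.185 for number 1, 0.0407 to 0.325 for number 2 and -0.0906 to 0.095 for number 3. Of the 12 libraries, 8 correlated best with one of their own number. Whether libraries are paired by number was not tested. The replicate block by column number gave more genes called in each direction than the main fit in all 5 comparisons. With CS-PA/CNP it gave 1099 genes higher and 934 lower in place of 777 and 654, and 5 members higher in place of 3. Of 650 member values under all alternatives, 628 kept direction and call, 15 lost a call, 5 gained one and 2 changed sign. Each member had 360 to 18389 reads per group, so depth kept none from being tested.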
